A study of Mus musculus with 4 samples.

Results

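Transcripts of 33 genes for cholesterol synthesis, its control, intracellular sterol movement, efflux and the liver X receptors (LXRs) were followed in 4 polyA RNA libraries from primary cultures of mouse bone marrow, labelled as mesenchymal stem cells (the adherent stromal cells of marrow). The 33 genes were listed by symbol, and all of them were found among the 24319 entries of both deposited tables. Each group was 1 library: Kdm4b knockout (KO) cells under osteogenic induction, wild-type (WT) cells under induction, KO cells in control medium and WT cells in control medium, all after 4 days of culture. Kdm4b encodes a histone demethylase that acts on methylated lysines of histone H3. All 4 groups share the cell source, and KO is given in the series text as Kdm4b-/-. How the knockout was made, the strain, age and number of mice, and whether cells were pooled are not given in the sources used here, and the composition of the osteogenic medium is not either. With 1 library per group no value below has a standard deviation, a p-value or a check against the spread between cultures, and fewer cells of a type cannot be told apart from less RNA per cell.

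Cells make cholesterol from acetyl-CoA by way of mevalonate and the isoprenoid farnesyl diphosphate, which squalene synthase commits to the sterol branch. When sterol in the endoplasmic reticulum is low, SCAP escorts the SREBP transcription factors to the Golgi apparatus, where they are cleaved and released to switch on the synthesis genes; INSIG proteins hold SCAP back when sterol is plentiful. Oxidised sterols activate the LXRs instead, which induce the cholesterol exporters ABCA1 and ABCG1 and apolipoprotein E, and macrophages use this route heavily. SREBP proteins are regulated by cleavage, which RNA levels do not show.

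The regulators bind DNA close to the start sites of some of these genes, so 4 upstream stretches are shown, chosen because they hold the letters of known elements. Start-site windows of RefSeq (build GRCm38.p6, 250 bases before to 50 after a start) were matched to 27 of the 33 members, with several windows for some genes. The files were made on build mm9, so these stretches are for sequence only and no measured value was read from their positions. The sterol regulatory element was searched as TCACNCCAC, the CCAAT box, which binds the SREBP partner NF-Y, as CCAAT, and an LXR element as 2 copies of GGTNA with 5 bases between them, each on both strands. The last pattern was written to admit the variant known at Abca1, so its match there is no finding. In the lines below, which run 5′ to 3′ and end at the base before the start, capitals mark matches on either strand: the sterol element and CCAAT boxes in Hmgcs1, CCAAT boxes in Mvd and the LXR pattern in Abca1 and Srebf1. No marked matches overlap.

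Hmgcs1 (chr13:119690101-119690350, plus strand): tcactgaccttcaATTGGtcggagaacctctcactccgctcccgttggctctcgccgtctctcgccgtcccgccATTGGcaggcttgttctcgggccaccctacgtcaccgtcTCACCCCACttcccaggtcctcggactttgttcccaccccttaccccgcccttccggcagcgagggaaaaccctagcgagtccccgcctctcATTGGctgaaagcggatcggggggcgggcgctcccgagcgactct
Mvd (chr8:122443423-122443672, minus strand): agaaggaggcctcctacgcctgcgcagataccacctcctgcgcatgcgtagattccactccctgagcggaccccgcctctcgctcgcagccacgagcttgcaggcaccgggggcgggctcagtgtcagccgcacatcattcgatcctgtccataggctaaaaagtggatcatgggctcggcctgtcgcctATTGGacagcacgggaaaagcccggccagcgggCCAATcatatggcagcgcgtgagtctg
Abca1 (chr4:53159896-53160145, minus strand): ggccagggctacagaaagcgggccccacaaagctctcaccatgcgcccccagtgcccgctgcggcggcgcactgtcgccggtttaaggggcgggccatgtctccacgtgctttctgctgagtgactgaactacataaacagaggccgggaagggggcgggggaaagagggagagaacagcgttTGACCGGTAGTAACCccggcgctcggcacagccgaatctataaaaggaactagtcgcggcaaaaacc
Srebf1 (chr11:60210472-60210721, minus strand): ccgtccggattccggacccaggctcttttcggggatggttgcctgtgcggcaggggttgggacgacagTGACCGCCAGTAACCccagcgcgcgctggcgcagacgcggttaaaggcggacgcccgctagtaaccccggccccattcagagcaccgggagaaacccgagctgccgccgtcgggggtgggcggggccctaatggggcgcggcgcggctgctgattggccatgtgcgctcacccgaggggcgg

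The Hmgcs1 line holds the sterol element 137 bases before the start, with CCAAT boxes in reverse on both sides of it. In Mvd the boxes lie 60 and 27 bases before the start. The LXR pattern begins 67 bases before the start in Abca1 and 182 bases before this start in Srebf1, which encodes SREBP-1 and is itself a known LXR target. Of the 15 synthesis enzymes with a window, 14 held a CCAAT box, against 41.1% of all 27025 genes with a window (37.4% of windows). The sterol element was present in 1 of these 15 enzymes, beside 1.44% of genes (1.24% of windows). The LXR pattern was present in 1 of 4 efflux and LXR genes, and in 0.818% of all genes (0.718% of windows). That gene was Abca1, whose variant the pattern was written to admit, so its match cannot be weighed against the share of all genes. A stricter form of the pattern matched 0 of the 4, but only 4 of all 27025 genes held it. These are counts of letters in short windows and say nothing of binding.

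Expression was deposited as FPKM, fragments scaled to transcript length and library size, a scale on which genes can be compared. Kdm4b, the targeted gene, stood at 4.26 FPKM in induced KO, 5.83 FPKM in induced WT, 4.30 FPKM in control KO and 4.60 FPKM in control WT cells, so both KO values lay below both WT values, by a log2 ratio of -0.38 under induction and -0.08 in control medium, and neither passed the 2-fold rule. Every difference below is between libraries as labelled. The induced WT library stood apart from the other 3: it had 0.0621 FPKM of the female-specific RNA Xist, against 21.6 to 30.5 FPKM, and 28.7 FPKM of the Y-linked Ddx3y, against at most 0.0208 FPKM. Sex of the animal and genotype label therefore cannot be told apart under induction, nor sex and medium within WT. Stromal markers varied in level: Col1a1 stood at 235 to 836 FPKM and Cxcl12 at 89.6 to 163 FPKM, but Pdgfra at 3.13 to 8.36 FPKM, Dcn at 1.72 to 17.5 FPKM, Thy1 at no more than 12.2 FPKM and Lepr at no more than 0.271 FPKM. All 10 macrophage markers were present too, and their summed level was 8728, 8149, 9337 and 10262 FPKM in induced KO, induced WT, control KO and control WT cells. Of these sums Lyz2 alone made up 6734, 6763, 6915 and 7937 FPKM, so they mostly show Lyz2 and not the other markers. Lymphoid and neutrophil markers were at or near 0, with 3 of 4 at 0 in every library. The tables give no read counts, so depth in reads is unknown; the most frequent ratio between low values put depth, relative to control WT, near 1.09 for induced KO, 0.80 for induced WT and 0.91 for control KO cells.

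All 33 members reached at least 3.37 FPKM in every library, so none entered through 1 group alone. Apoe, which encodes the lipoprotein ligand made in bulk by macrophages, was by far the most abundant, at 16718, 12183, 11138 and 14357 FPKM in induced KO, induced WT, control KO and control WT cells. That was 2.44%, 2.17%, 1.90% and 2.05% of the summed FPKM of each library. Npc2, the soluble lysosomal cholesterol carrier, came next at 208 to 449 FPKM. Among the enzymes the squalene synthase gene Fdft1, the farnesyl diphosphate synthase gene Fdps and the HMG-CoA synthase gene Hmgcs1 led, with their highest levels at 83.0, 86.8 and 69.4 FPKM. Lss, Acat2, Ggps1 and Hsd17b7 had the lowest mean levels over the 4 libraries, and the highest value among them was 13.2 FPKM, in Hsd17b7. The plot of FPKM by library shows the induced WT library apart from the other 3 in many rows.

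**Figure D1:**
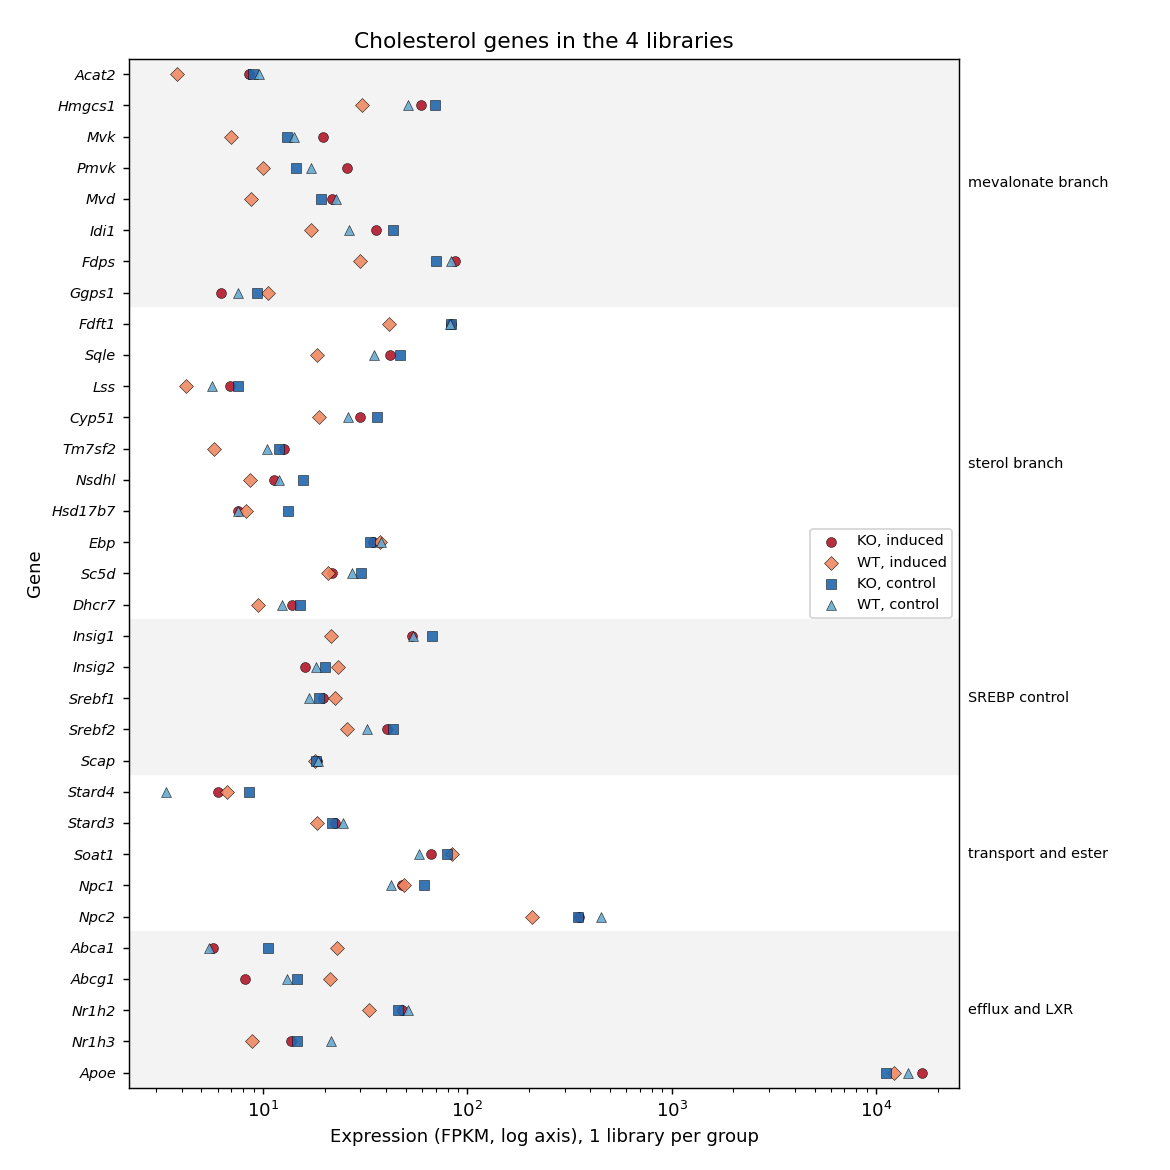
Level of each of the 33 genes (rows, grouped by role) in FPKM on a log axis, with 1 marker per library. The induced WT library (diamonds) lies to the left of the other 3 in 15 of 18 synthesis enzymes and to the right of them for Abca1 and Abcg1.

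The comparison of KO with WT under induction asked how the knockout cells differ once driven towards osteoblasts. Of the synthesis enzymes 8 of 18 were higher in induced KO cells, as was the SREBP regulator gene Insig1, and the exporter genes Abca1 and Abcg1 were lower. Summed over the 18 enzymes the level was 527 FPKM in induced KO and 291 FPKM in induced WT cells, and 541 FPKM in control KO and 489 FPKM in control WT cells. The libraries differ in total, and as shares of summed FPKM these were 0.0769%, 0.0517%, 0.0925% and 0.0697% in the same order. Differences are given as log2 ratios of FPKM + 1, and a gene was called higher or lower at a ratio of at least 1 in size (2-fold) with at least 1 FPKM in a library compared. By this rule 9 of the 33 members were higher, where 5.27% of all 11936 genes tested were, and 2 were lower, where 5.40% were. Of the 18 synthesis enzymes 8 were higher and 0 lower, and their median ratio was 0.96, against -0.02 over all genes tested. At 1.5-fold 12 of the 18 were higher and 1 lower, beside 15.1% and 16.4% of all genes (31.5% either way).

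The mevalonate branch held most of the called genes, with 6 of 8 enzymes higher and a median of 1.12. Fdps, whose enzyme makes farnesyl diphosphate, was at 86.8 FPKM in induced KO, 29.9 FPKM in induced WT, 70.2 FPKM in control KO and 83.4 FPKM in control WT cells. The induced KO value was 2.90-fold that of induced WT (log2 ratio 1.51), and the 3 libraries other than induced WT lay close together. Exons of Fdps overlap those of the protein-coding gene Gm43738 on the same strand. Mvk, the mevalonate kinase gene, was at 19.7, 7.01, 13.1 and 14.2 FPKM in the same order of libraries, a log2 ratio of 1.37 of induced KO to induced WT. Pmvk, which encodes the next kinase, was at 25.8, 9.99, 14.5 and 17.1 FPKM (log2 ratio 1.29). For both kinases induced KO was the highest library and induced WT the lowest. Mvd, the decarboxylase that yields isopentenyl diphosphate, was at 21.6 FPKM in induced KO, 8.74 FPKM in induced WT, 19.3 FPKM in control KO and 22.8 FPKM in control WT cells (log2 ratio 1.22 under induction). Idi1, the isomerase of that product, was at 35.7, 17.1, 43.3 and 26.3 FPKM (log2 ratio 1.02), with control KO the highest library. Exons of Idi1 overlap those of Gm48574 on the other strand. Acat2, which encodes the cytosolic thiolase that joins acetyl-CoA units, was at 8.58, 3.78, 8.96 and 9.51 FPKM, just past the rule. Its transcript shares 97.7% of bases over 65.6% of its length with that of Acat3, which stood at 25.6, 24.8, 23.3 and 31.0 FPKM, so the split of reads between these copies is uncertain. Hmgcs1 was just outside the rule at 0.94, with 59.0, 30.4, 69.4 and 51.4 FPKM. The exception was Ggps1, which encodes the synthase of geranylgeranyl diphosphate for protein prenylation rather than for sterols: it was at 6.26, 10.6, 9.37 and 7.51 FPKM, a ratio of -0.68, with induced WT the highest library. Exons of Ggps1 overlap those of Arid4b on the other strand, and the library kit keeps strand, but whether the counting used it is not given in the sources used here.

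In the sterol branch 2 of 10 enzymes were higher, beside 5.27% of all genes, and the median was 0.56. Sqle, the gene of squalene epoxidase, was at 42.0 FPKM in induced KO, 18.4 FPKM in induced WT, 46.9 FPKM in control KO and 34.9 FPKM in control WT cells (log2 ratio 1.15). Tm7sf2, a sterol reductase gene, was at 12.7, 5.73, 12.0 and 10.5 FPKM (log2 ratio 1.02). Its exons overlap those of Vps51 on the same strand, whose levels ran from 12.3 to 15.9 FPKM. Fdft1 stopped just short of the rule at 0.99, with 83.0 FPKM in induced KO, 41.2 FPKM in induced WT, 83.0 FPKM in control KO and 82.6 FPKM in control WT cells. Its exons overlap those of the abundant protease gene Ctsb on the other strand, at 1835 to 2268 FPKM. The other ratios of the branch were smaller. Cyp51, the lanosterol demethylase gene, had 0.64, Lss, the lanosterol synthase gene, 0.61, and Dhcr7, the gene of the final reductase, 0.51. Nsdhl was at 0.35, Sc5d at 0.06, Ebp at -0.12 and Hsd17b7 at -0.12, all within 1.5-fold. Nsdhl and Ebp lie on the X chromosome, and the libraries compared differed in Xist as well.

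Among the genes that control the pathway, Insig1, a sterol-responsive SREBP target, was the only one of 5 past the rule, beside 10.7% of all genes. It was at 53.5 FPKM in induced KO, 21.5 FPKM in induced WT, 66.9 FPKM in control KO and 54.3 FPKM in control WT cells (log2 ratio 1.28), with induced WT alone low. Insig2, its relative that SREBP does not drive in the same way, had a ratio of -0.50. Srebf2, the gene of SREBP-2, was at 40.3, 25.7, 43.3 and 32.2 FPKM (log2 ratio 0.63). Srebf1 had -0.19. Scap was nearly level in all libraries, between 17.9 and 18.7 FPKM.

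Sterol movement genes had 0 of 5 called under induction, where 10.7% of all genes were called either way, so this count is no result about them. Their median was -0.04. Npc2 was at 351 FPKM in induced KO, 208 FPKM in induced WT, 349 FPKM in control KO and 449 FPKM in control WT cells, a ratio of 0.75. Npc1, its membrane partner in the lysosome, had -0.04. Soat1, which encodes the acyltransferase that makes cholesterol esters, had -0.33, Stard3, a late endosomal sterol carrier, 0.27, and Stard4, a cytosolic sterol carrier, -0.13.

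Efflux and LXR genes went both ways. Abca1, the exporter to lipid-poor apolipoprotein A-I, was at 5.69 FPKM in induced KO, 23.0 FPKM in induced WT, 10.6 FPKM in control KO and 5.47 FPKM in control WT cells. Induced KO was 4.04-fold lower than induced WT (log2 ratio -1.84), and induced WT was the highest library. Abcg1, the exporter to mature high-density lipoprotein, was at 8.16, 21.3, 14.7 and 13.1 FPKM, 2.61-fold lower in induced KO than in induced WT (log2 ratio -1.28). Ratios of the receptor genes were above 0 but short of the rule. Nr1h3, which encodes LXR alpha, was at 13.7, 8.84, 14.6 and 21.5 FPKM (ratio 0.58), and Nr1h2, which encodes LXR beta, had 0.52. Exons of Nr1h3 overlap those of Gm13783 on the same strand. Apoe had 0.46. The median over these 5 genes was 0.46, which is not the value of either exporter, and the 20 synthesis and uptake genes (18 enzymes, Npc1 and Npc2) exceeded it by 0.39. Averaged as a mean, the efflux and LXR genes had -0.31 and the excess was 0.99. The panels by library set the enzymes beside the exporters.

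**Figure D2:**
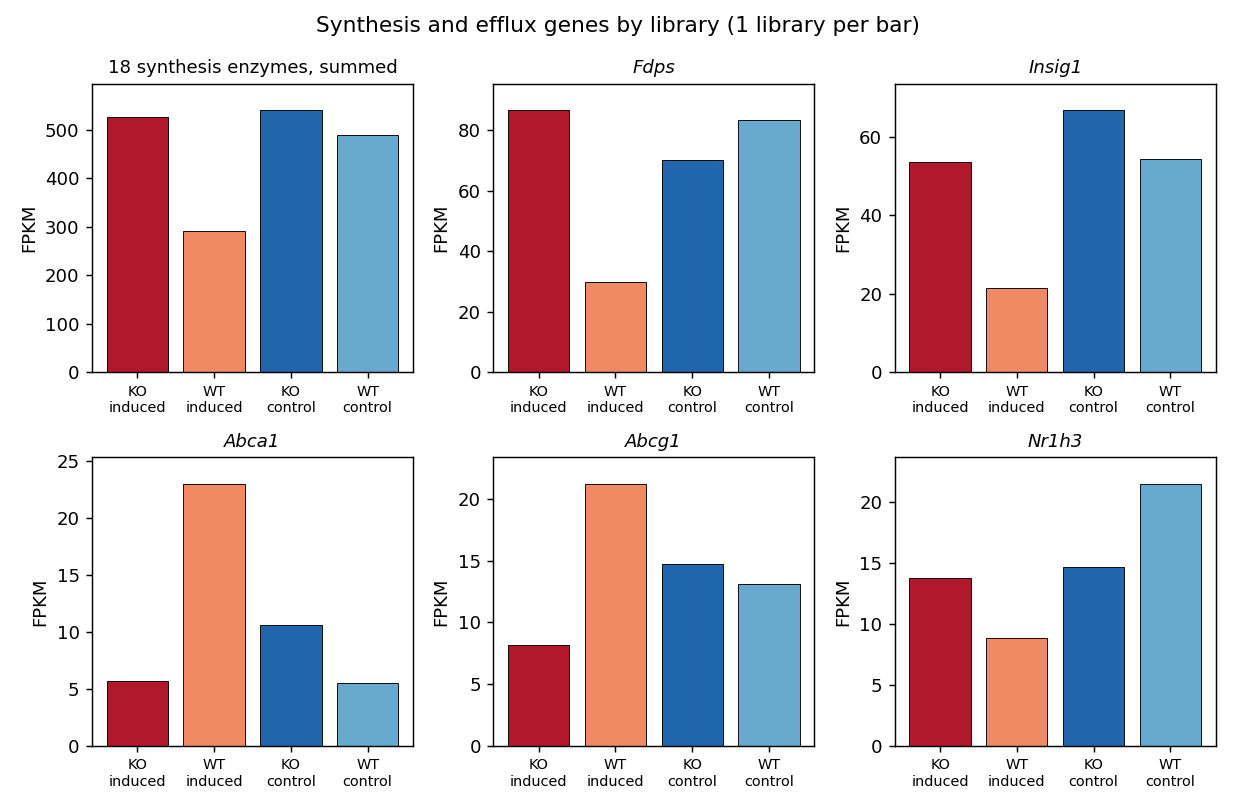
FPKM in each library (1 bar per library, no error since there are no replicates) for the sum of the 18 synthesis enzymes, for Fdps and Insig1, and for the efflux and LXR genes Abca1, Abcg1 and Nr1h3. Induced WT has the lowest bar for the enzymes, Insig1 and Nr1h3 and the highest for both exporters.

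Macrophage markers had ratios on both sides of 0 between the same libraries, where 5.27% of all genes were higher and 5.40% lower. Of the 10, 1 was higher in induced KO than in induced WT and 0 lower, with a median of 0.53: Cd14 had 2.46, Csf1r 0.81 and Cd68 0.78, Lyz2 -0.01, while Mrc1 had -0.95. Stromal and osteoblast markers differed as well, with 3 of 9 stromal markers higher (Thy1 2.43, Dcn 2.05 and Eng 1.91) and 1 lower (Pdgfrb, -1.33), and 1 of 6 osteoblast markers higher and 4 lower (Ibsp was at 1.98 FPKM in induced KO and 177 FPKM in induced WT cells). Summed levels were 896 FPKM in induced KO and 1272 FPKM in induced WT cells for the stromal list, of which Col1a1 made up 477 and 836 FPKM, and 12.6 and 211 FPKM for the osteoblast list. The part of cell composition in these differences was not tested. Transcript length also went with the ratios: across 11861 genes with a length, Spearman's rho between the KO to WT ratio under induction and the longest annotated transcript was -0.43, a description across genes that share 2 libraries. Abca1 has the longest transcript of the members, 10262 bases. With the running median over length subtracted, Abca1 had -1.30 and Abcg1 -0.94, which is short of the rule, while Fdps had 1.47, Mvk 1.25, Sqle 1.28 and Insig1 1.20. Of the 18 enzymes 6 were then higher, where 4.45% of all genes were, 0 were lower, where 4.33% were, and the median was 0.93. Mvd at 0.98, Idi1 at 0.97, Pmvk at 0.89 and Acat2 at 0.82 no longer passed, while Hmgcs1 at 1.02 and Fdft1 at 1.03 did.

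**Figure D3:**
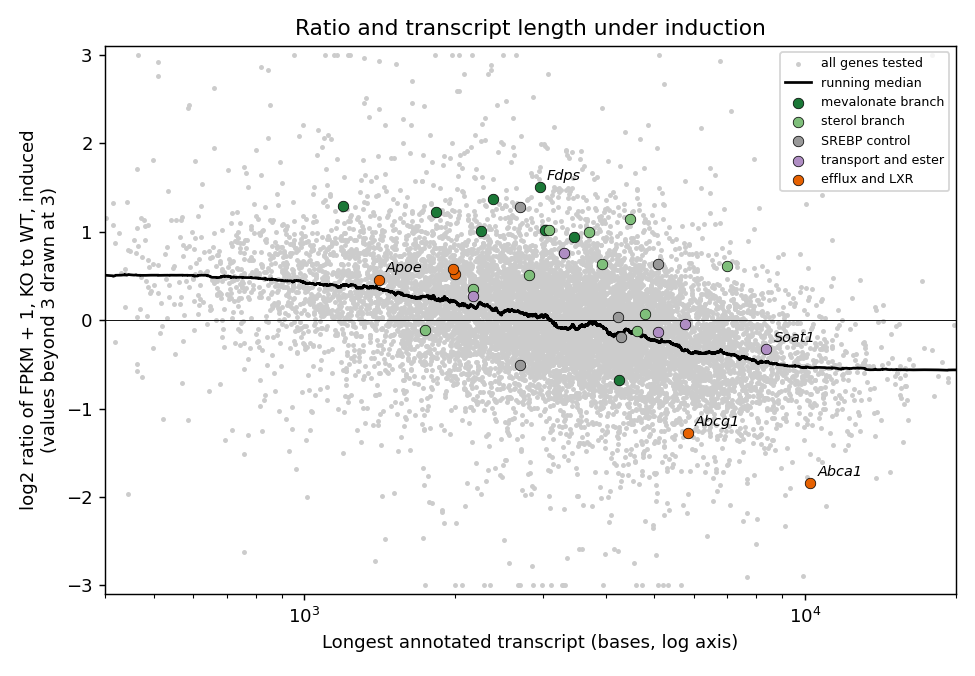
Ratio of induced KO to induced WT (vertical axis, log2 of FPKM + 1) against the longest annotated transcript (horizontal axis, bases, log scale), with all genes tested in grey, the members coloured by role and the running median as a line. The line falls with length, most synthesis enzymes lie above it, and Abca1 and Abcg1 lie below it.

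With induced KO set against control WT, 0 of 33 members passed the rule, where 2.83% of all 11789 genes did, and the median of the enzymes was 0.11; these libraries differ in medium as well as genotype label. With the summed FPKM of the libraries set equal, here and below without small RNA genes and Rn45s, 6 of the 33 members passed in place of 11. With a pseudocount of 5 also 6 passed. The share of all genes passing was not computed under either setting, so these falls are no result about the members. The 11 calls all use the induced WT library, which was the lowest of the 4 libraries for 15 of 18 enzymes. It was lowest for 37.2% of all 12294 genes with at least 1 FPKM in a library. Across the 33 members it was lowest for 22 and highest for 6, beside 37.1% of all genes for the highest place. In some called genes induced KO stood apart from both control libraries as well. Pmvk and Mvk were highest in induced KO and Abcg1 lowest, with ratios to control KO of 0.79, 0.55 and -0.78.

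In control medium 1 of the 33 genes passed the rule between KO and WT cells. This was Stard4, higher in KO, where 0.929% of all 11845 genes were higher and 1.47% lower (2.40% either way). Stard4 stood at 8.50 FPKM in control KO and 3.37 FPKM in control WT cells (log2 ratio 1.12), beside 5.99 FPKM in induced KO and 6.65 FPKM in induced WT cells, so control WT was the library that stood low. With the length trend removed its ratio was 0.94 and 0 members passed. Sterol branch enzymes had a median of 0.32, with 9 of 10 above 0, where 5722 of all 11845 genes were. They were led by Hsd17b7 at 13.2 FPKM in control KO and 7.56 FPKM in control WT cells (0.73). Mevalonate branch enzymes had a median of -0.09. Idi1 had 0.70 and Hmgcs1 0.43, whereas Fdps had -0.25, Mvd -0.23 and Pmvk -0.23. Over all 18 enzymes the median was 0.23, against -0.02 for all genes, with 0 called and, at 1.5-fold, 2 higher (5.24% of all genes) and 0 lower (7.13%). The efflux and LXR genes had a median of -0.16, or 0.073 with the summed FPKM of the libraries set equal: Abca1, at 10.6 FPKM in control KO and 5.47 FPKM in control WT cells, had 0.85, Abcg1 0.16, Nr1h2 -0.16, Apoe -0.37 and Nr1h3 -0.52. The synthesis and uptake genes exceeded the efflux and LXR median by 0.39, nearly the same excess as under induction. It was 0.22 with the length trend removed and 0.18 with means. In control medium the ratio ran with transcript length (rho 0.51 over 11775 genes), opposite in sign to that under induction. Of 9 stromal markers tested 3 were higher in control KO cells, with a median of 0.78, and of 10 macrophage markers 1 was higher, with a median of 0.17; their part in these values was not tested.

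Within WT, induction was set against control to show the response to the medium, with values from separately deposited tables. Of the members 1 was higher in induced WT cells and 6 were lower, where 7.22% and 7.95% of all 12094 genes were. The lower ones were Fdps (-1.45), Insig1 (-1.30), Mvd (-1.29), Nr1h3 (-1.19), Acat2 (-1.14) and Npc2 (-1.11), and the higher one was Abca1 (1.89). Abca1 was thus 4.20-fold higher, at 23.0 FPKM in induced WT and 5.47 FPKM in control WT cells, and Abcg1 had 0.66. The 18 enzymes had a median of -0.66, against -0.03 over all genes, with 3 lower and 0 higher. Of the 18, 16 were below 0, where 6273 of all 12094 genes were. At 1.5-fold 10 were lower, where 19.9% of all genes were (37.5% either way). The efflux and LXR genes had a median of -0.24, which turned to 0.20 with the length trend removed and 0.069 with the summed FPKM set equal. The synthesis and uptake median minus the efflux and LXR median was -0.42, and -0.83 with the length trend removed. This comparison shares the induced WT library with that of KO and WT under induction, and it also differs in sex-linked genes (Ddx3y ratio 4.87) and in macrophage genes in both directions (Cd14 -3.14, Mrc1 2.04, Mertk 1.90). With the length trend removed Abca1 had 1.33, Abcg1 0.33, Fdps -1.37 and Insig1 -1.20, and 1 member was higher (5.92% of all genes) and 4 lower (5.98%).

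Within KO, 0 of 33 members passed the rule between induced and control cells, where 1.54% of all 11748 genes were higher and 1.07% lower. The glucocorticoid-induced gene Fkbp5 was at 79.3 FPKM in induced KO and 3.94 FPKM in control KO cells, a ratio of 4.02. The enzymes had a median of -0.12 and the efflux and LXR genes of -0.08, against -0.04 over all genes. At 1.5-fold 2 members were higher and 3 lower, beside 6.08% and 5.53% of all genes, and with the length trend removed 0 were called, beside 1.40% higher and 1.16% lower. The ratios of largest size were those of Abca1 (-0.80), Pmvk (0.79), Abcg1 (-0.78) and Hsd17b7 (-0.74). Of 10 macrophage markers 0 were called, with a median of -0.23. Whether the response to induction differs between genotypes has no test with 1 library each. The 4 ratios of each member are drawn side by side by role.

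**Figure D4:**
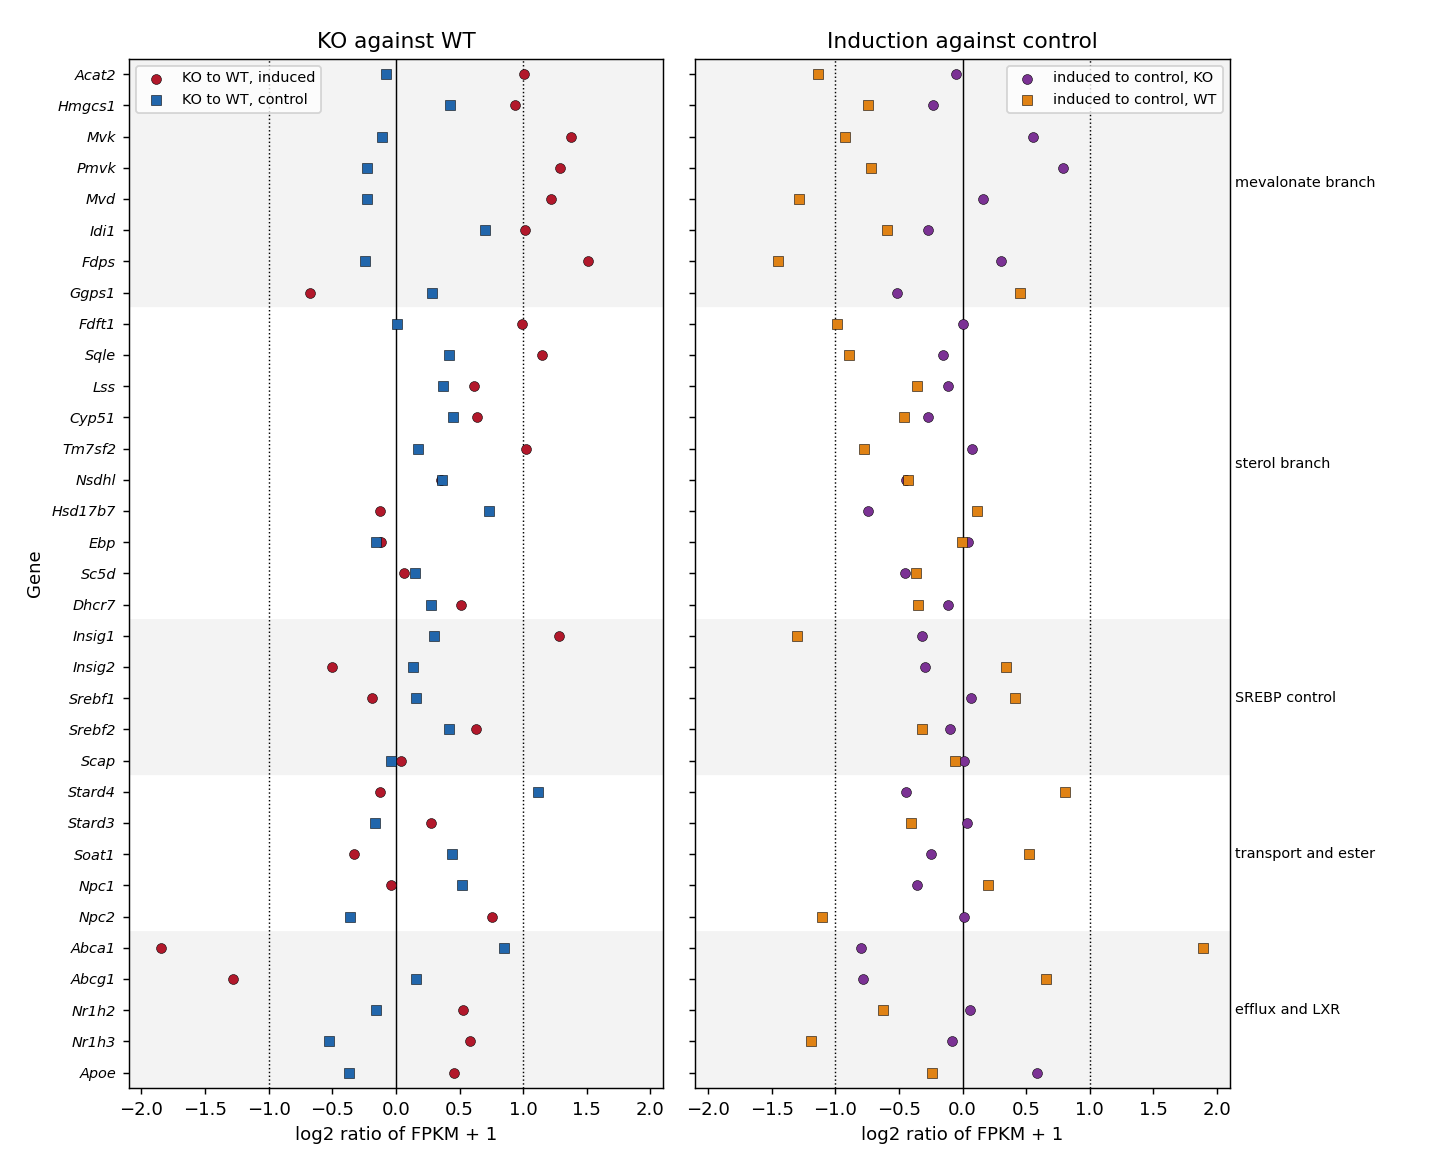
Log2 ratios of FPKM + 1 for each gene (rows, by role), with KO against WT on the left (induced as circles, control as squares) and induction against control on the right (KO as circles, WT as squares); dotted lines mark the 2-fold rule. Induced KO to WT ratios lie past the right line for 8 synthesis enzymes and Insig1 and past the left line for Abca1 and Abcg1, while no member crosses a line for induction in KO.

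Further lists covered genes of the same routes outside the 33. For KO against WT under induction 5.27% of all 11936 genes were higher and 5.40% lower. Counts of 0 or 1 in lists this short are therefore no result about the lists. Among further sterol genes Msmo1, the methylsterol oxidase gene, stood at the edge of the rule, at 100.1 FPKM in induced KO and 49.6 FPKM in induced WT cells. Of 13 tested fatty acid genes driven by SREBP-1, 0 were higher and 1 lower, with a median of -0.15; the lower gene was the desaturase gene Scd2 (-1.17). With the length trend removed 0 of the 13 were called, beside 4.45% of all genes higher and 4.33% lower, and the median was 0.07. Among 12 tested LXR targets and cofactors 0 were called either way, with a median of -0.11. Of 11 tested uptake genes 1 was lower, the scavenger receptor gene Cd36 (-1.23). The higher side of the uptake list is not reported here. Of 8 tested oxysterol and ester genes Ch25h, the cholesterol 25-hydroxylase gene, was higher, at 7.44 FPKM in induced KO and 2.20 FPKM in induced WT cells (1.40). In WT, induction against control gave Ch25h (-2.72) as lower and Cd36 (1.92) and Scd2 (1.15) as higher. There 7.22% of all genes were higher and 7.95% lower. With the length trend removed 0 of the fatty acid genes were called in WT, beside 5.92% of all genes higher and 5.98% lower. In KO Arl4c, a small GTPase gene of the LXR list, was lower (-1.23), where 1.07% of all genes were. In control medium these 5 lists had 0 genes called, where 2.40% of all genes were called either way.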

How the data were processed

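RNA from 4 libraries, 1 per combination of genotype label and medium, was measured as FPKM. Per the file headers the deposited values are FPKM; TopHat, Cufflinks and mouse build mm9 are named in the submitters' processing notes. Versions, annotation, strand use, filters and the scaling of the tables to each other are not given in the sources used here. Each table had 24346 entries, of which 27 with a date in place of a symbol were left out. Columns were matched to samples by name. The log2 ratio of FPKM + 1 was computed for every gene, and genes with at least 1 FPKM in a library compared were called at a ratio of at least 1 in size, with the share of all genes called beside each count. No test was run: fitting genotype and medium as additive terms to the 4 libraries would leave 1 residual degree of freedom and was not done.

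Transcript length and GC content came from the longest GENCODE M21 transcript, matched for 99.4% of genes in each comparison, and a running median over 501 genes was subtracted as an alternative. Relative depth is the most frequent ratio to control WT among values under 0.15 FPKM. Overlapping exons came from the same annotation, and copies from blastn at 95% identity over 50% of a transcript. The calculation (Python 3.11.15, pandas 2.3.3) was tested on simulated data. The 33 members, the 5 lists of other pathway genes and the 7 marker lists were chosen with earlier results of these data known. Members past the rule in any comparison are named with all 4 values; of other lists called genes are named, apart from some that are not reported here, with Msmo1 and the markers Mrc1, Mertk, Pdgfra, Pdgfrb, Dcn, Thy1, Eng, Lepr and Ibsp added after their values were seen. Adipocyte (Adipoq ratio 1.45, Fabp4 1.28), osteoclast (0 of 2 tested called) and endothelial markers (1 of 1 tested higher) were read for KO against WT under induction.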

Additional observations from a re-analysis of the deposited data

Results flagged for a closer look

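In 10 of the 33 members the log2 ratio of KO to WT had opposite signs in the induced and the control medium and differed by at least 1. The share of all genes that meet this rule was not computed, so whether 10 of 33 is many is not known. With 1 library per group the difference was not tested, and every induced ratio uses the same induced WT library. The induced ratio minus the control ratio was 1.75 for Fdps, 1.51 for Pmvk, 1.48 for Mvk, 1.44 for Mvd and 1.08 for Acat2 among the synthesis enzymes. It was 1.12 for Npc2 and 1.11 for Nr1h3. On the other side it was -2.69 for Abca1, -1.44 for Abcg1 and -1.25 for Stard4.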

How the results depend on the processing

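Medians were taken as moved past 0.2 on the log2 scale and counts past 1.5 times; of 164 alternatives 116 gave neither, 40 moved and 8 turned the sign of a value of at least 0.2 in size. A further 6 turned the sign of a smaller value: the efflux and LXR median in control medium (main value -0.16) and the excess for KO on induction (-0.03), which was 0.071 without the length trend and 0.11 with means. A pseudocount of 0.1, median-ratio factors, no filter and a filter at 5 FPKM moved nothing. A pseudocount of 5 gave an enzyme median of 0.67 under induction, 6 members called there and 0 in control medium. The share of all genes called was not computed for a pseudocount of 5, equal summed FPKM or the GC trend. Setting equal the summed FPKM without small RNA genes and Rn45s shifts all log2 ratios by nearly the same amount. The shift was 0.24 for KO against WT in control medium, -0.25 for KO against WT under induction, 0.31 for induction against control in WT and -0.18 for induction against control in KO. KO against WT then had enzyme medians of 0.44 (control) and 0.72 (induced), efflux and LXR medians of 0.073 and 0.21, and 2 and 6 members called. WT on induction had -0.37 for the enzymes and 0.069 for efflux and LXR. Without the length trend 0 members were called in control medium, the efflux and LXR median was 0.10 for KO against WT under induction and 0.20 for WT on induction, and the excess of synthesis and uptake over them 0.77 and -0.83. With means, the enzymes had 0.71 under induction, the efflux and LXR genes -0.31 there and 0.10 for WT on induction, and the excess was 0.18 in control medium, 0.99 under induction and -0.69 for WT on induction. At 1.5-fold 4, 18, 17 and 5 members were called in KO against WT in control medium, KO against WT under induction, WT on induction and KO on induction. Of all genes 12.4%, 31.5%, 37.5% and 11.6% were called in the same order. With control WT in place of induced WT the values for KO against WT were 0.11 for the enzymes, -0.10 for efflux and LXR and 0 calls. Chosen after seeing the data were the removal of the GC trend and of 13 members with overlapping exons or a near-identical copy. Without the GC trend the efflux and LXR median was 0.10 in control medium, 0.11 under induction and 0.11 for WT on induction, the excess 0.075, 0.73, -0.74 and, for KO on induction, 0.22, and 0 members were called in control medium. Over the 20 members kept, the enzymes had 0.51 under induction and -0.43 for WT on induction, the efflux and LXR genes -0.41, 0.21 and, for KO on induction, -0.36, the excess was 0.021 in control medium, 1.05, -0.79 and 0.30, and 7 members were called under induction and 4 for WT on induction, which follows in part from fewer members. For the other changes the cause was not tested. No paired analysis was possible because each group is 1 library and the labels carry no replicate numbers; for the same reason no library could be left out of its group. Depth in reads is not known, so no limit from counting can be given.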
